A study of Rattus norvegicus with 8 samples.

Results

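The genes described here are 10 fibroblast growth factor (FGF) and FGF receptor genes of the rat hippocampus: the secreted ligands Fgf1, Fgf2, Fgf9 and Fgf18, the intracellular homologous factors Fgf12, Fgf13 and Fgf14, and the receptors Fgfr1, Fgfr2 and Fgfr3. They were found by their gene name in the scanner files, which gave 18 probes among the 30367 on the array. Hippocampal RNA came from male Sprague Dawley rats aged 3 months, which had received either vehicle for 7 days or, for as long, the combination labelled Y+I, which the series title gives as yohimbine and imipramine. Tissue was taken 2 h after treatment, and each of the 4 vehicle and 4 Y+I animals was hybridised to its own 1-colour array. Yohimbine is an antagonist of alpha2-adrenoceptors, and the tricyclic antidepressant imipramine slows the uptake of noradrenaline and serotonin from the synapse. Animals given either drug alone were not analysed here, so the drugs cannot be separated. The p-values measure the spread between these animals.

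Secreted FGFs bind heparan sulfate on the cell surface and, with it, bring together FGF receptor tyrosine kinases, which signal through the adaptor Frs2, the phosphatase Ptpn11 (Shp2), Ras and MAP kinases, and through phosphoinositide 3-kinase. Sprouty proteins and the MAP kinase phosphatase Dusp6 are induced by the pathway and dampen it. In the hippocampus, Fgf2 is known as a growth factor of astrocytes and neurons that acts on neural progenitors. The homologous factors are not secreted: they bind the cytoplasmic tail of voltage-gated sodium channels and do not act through the receptors as the ligands do.

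Several genes were read by more than 1 probe of 60 bases, and the probe sequences are those in the scanner files. Fgf2, the gene whose groups differed, had a single probe, placed by the files at chr2:123946945-123947004 of build rn4 on the plus strand. Probes of Fgfr1 and Fgfr2 are shown with it because these genes are close paralogs. The brightest Fgfr2 probe, A_43_P10225, which represents the gene below, is not among them. Capitals mark the longest stretch, 18 bases, that any probe of an Fgfr1, Fgfr2 or other gene of the set shared with a probe of another gene of the set. The Fgf14 probe is the one whose group means stood farthest apart in relation to their error after Fgf2.
Fgf2 A_44_P212850: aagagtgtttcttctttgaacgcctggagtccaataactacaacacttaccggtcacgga
Fgfr1 A_64_P064019: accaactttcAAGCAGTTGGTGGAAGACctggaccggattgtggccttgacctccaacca
Fgfr2 A_64_P064028: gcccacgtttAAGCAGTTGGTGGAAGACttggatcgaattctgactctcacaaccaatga
Fgfr1 A_64_P064020: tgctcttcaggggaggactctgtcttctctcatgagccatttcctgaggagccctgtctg
Fgfr2 A_64_P113700: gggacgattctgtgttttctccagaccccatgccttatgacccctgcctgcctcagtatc
Fgf14 A_64_P124751: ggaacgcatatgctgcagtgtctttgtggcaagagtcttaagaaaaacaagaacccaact

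The marked stretch was held by 2 of the 30367 probes, those of Fgfr1 and Fgfr2, and binding of one receptor's RNA to the probe of the other was not tested. The files place the Fgfr1 probes at chr16:70870258-70870317 and chr16:70870022-70870081, and the Fgfr2 probes shown at chr1:189488370-189488429 and chr1:189484518-189484577. The Fgf14 probe shown lies at chr15:109714158-109714217, and all of these are on the minus strand of rn4. Neither the labels nor the files used state which stretch of the transcript a probe covers.

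Of the 58717 noncontrol spots of an array, 76.4% to 79.7% were well above background in vehicle and 64.4% to 74.8% in Y+I, and 0 were saturated. Each array was centred on the 75th percentile of its signal, which was 1939 to 2106 scanner units for the vehicle arrays and 1883, 1408, 1971 and 1045 for Y+I animals 1 to 4. All 8 arrays shared a slide, whose row 1 held the vehicle arrays and row 2 the Y+I arrays, and the effect of the row cannot be told apart from that of treatment. The spread between animals was larger in Y+I for 9 of the 10 genes: their median SD in log2 units was 0.16 among vehicle animals and 0.31 among Y+I animals, against 0.13 and 0.24 over all features. All values below are log2 signals relative to the 75th percentile of their array unless a sentence says otherwise, and a difference is Y+I minus vehicle. Signals of different probes depend on the probe and were not set against each other.

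All 10 genes were well above background on all 8 arrays, and 17 of the 18 probes passed the filter on dim signals. Of the 10 genes, 1 rose (Fgf2) and 0 fell at an adjusted p under 0.05 in limma, where 2.33% of the 18803 features tested passed in either direction and 0.739% rose. With no adjustment the count stayed at 1 of 10, against 15.6% of all features. The groups did not overlap for 1 of the 10 genes, again Fgf2, against 11.7% of all features. The difference was above 0 for 5 genes and below 0 for 5, where 45.9% of all features lay above 0. The median difference of the genes was -0.0020, close to the median of -0.02 over all features. With Fgf2 included, the shares without adjustment and without overlap did not set the genes apart from the rest of the array. The count of 1 of 10 at the adjusted threshold is too small to set against 2.33%. In bulk tissue, fewer cells of a type and less RNA per cell cannot be told apart.

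**Figure D1:**
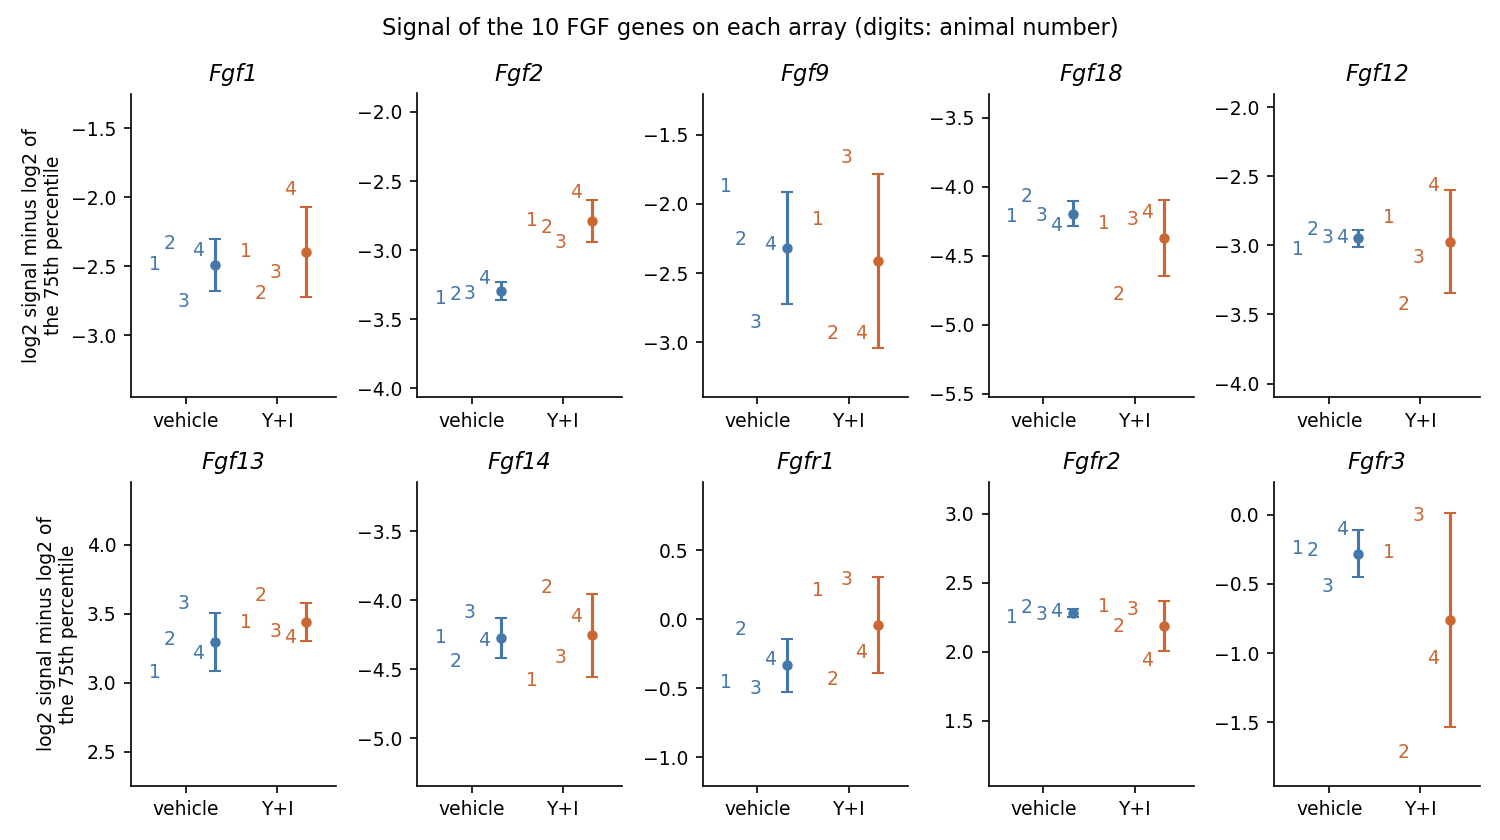
Log2 signal relative to the 75th percentile of the array (y axis) for each of the 10 genes, in vehicle (blue) and Y+I (orange); digits are single animals, and the dot and bar beside them are the mean and SD of 4 animals. All panels span the same height of log2 units. The 4 Y+I animals lie above the 4 vehicle animals for Fgf2 and overlap them in the other panels, and the Fgfr3 bar of Y+I is the longest, with animal 2 at -1.72.

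Fgf2, the basic fibroblast growth factor, rose in Y+I. Vehicle animals 1 to 4 stood at -3.35, -3.32, -3.32 and -3.20, and Y+I animals 1 to 4 at -2.79, -2.84, -2.94 and -2.58. Every Y+I animal was higher than every vehicle animal. The gap between the nearest animals, vehicle 4 and Y+I 3, was larger than the range within vehicle (0.14). It was smaller than the range within Y+I (0.36). The group means were -3.30 ± 0.06 (SD, n = 4) and -2.79 ± 0.15 (SD, n = 4). Their difference was 0.51 ± 0.10 (SE), with a 95% interval from 0.28 to 0.74, or 1.42-fold, and an adjusted p of 0.0407 in limma (unadjusted p = 0.000793). By p-value Fgf2 ranked 366 among all features. Y+I exceeded vehicle by 0.56, 0.48, 0.37 and 0.62 in slide columns 1 to 4, each of which held 1 array of either group. With the column as a block in the fit the difference was the same and did not pass (adjusted p = 0.120 in limma).

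The Fgf2 probe was printed 10 times on each array, which shows the spread between spots within an array. Error that all spots of an array share, such as that of its scaling, is not part of this spread. The SD of the 10 spots lay between 0.05 and 0.15 on the 8 arrays. The highest of the 40 vehicle spots was at -3.09 and the lowest of the 40 Y+I spots at -3.05, so even single spots did not overlap between the groups, although spots of 1 animal are not replicates. The probe of Fgf13, also printed 10 times, showed the other case: its spots kept close to the mean of their array, with an SD of 0.03 to 0.10, while the arrays of both groups interleaved.

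**Figure D2:**
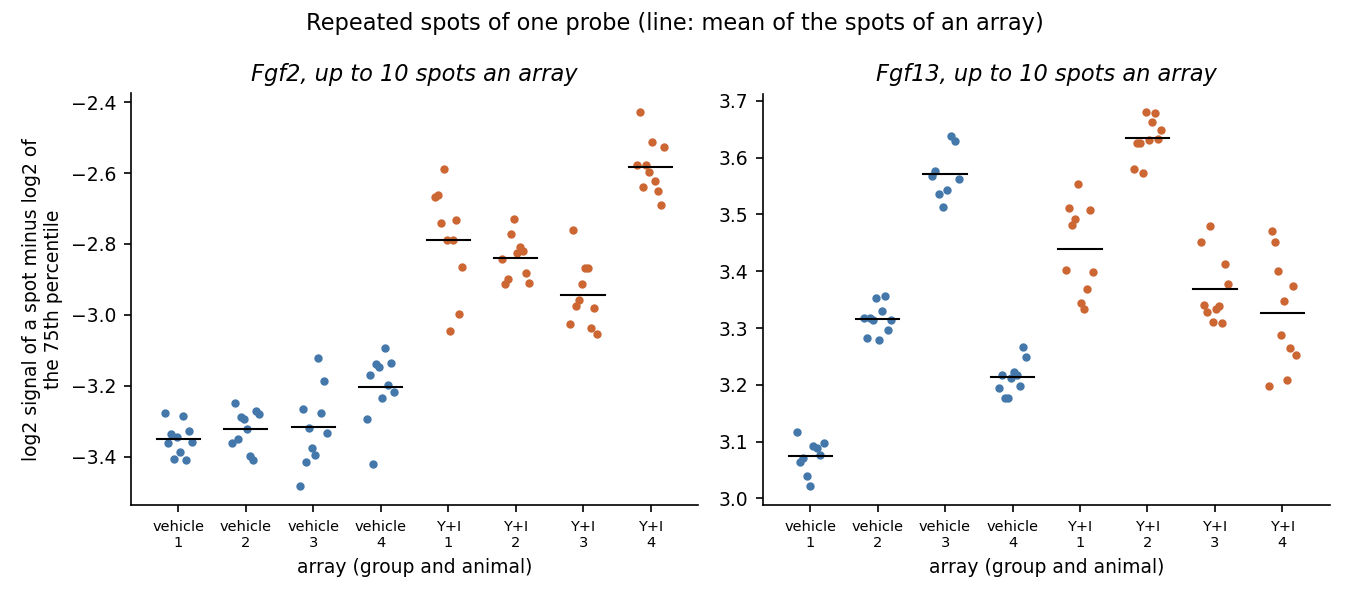
Log2 signal of each spot relative to the 75th percentile of its array (y axis) for Fgf2 and for Fgf13 on the 8 arrays (x axis: group and animal); black lines are array means. Spots left out as non-uniform or as outliers are not drawn. All Fgf2 spots of Y+I lie above those of vehicle, from -3.05 upward against -3.09 and below, while the Fgf13 arrays of both groups share the range from 3.20 to 3.64.

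The Fgf2 difference appeared on the centred scale. In scanner units, before centring, the mean Fgf2 signal was 199, 204, 195 and 229 in vehicle animals 1 to 4 and 274, 197, 257 and 175 in Y+I animals 1 to 4, and these ranges overlapped. The Y+I animals with the lowest uncentred signal, 2 and 4, were those with the lowest 75th percentiles, and the rise in them rests on that scaling. Over 20 other settings the difference stayed above 0 in all 20, between 0.44 and 0.61, while the adjusted p ranged from 0.0246 to 0.122 and passed in 9. It was 0.0506 with median centring, 0.0503 with a trended and robust variance and 0.0589 without Y+I animals 2 and 3. With 1 array left out it passed in 1 of 8 fits: it was 0.110, 0.122, 0.113 and 0.108 without vehicle animals 1 to 4, and 0.0871, 0.0622, 0.0422 and 0.0691 without Y+I animals 1 to 4.

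**Figure D3:**
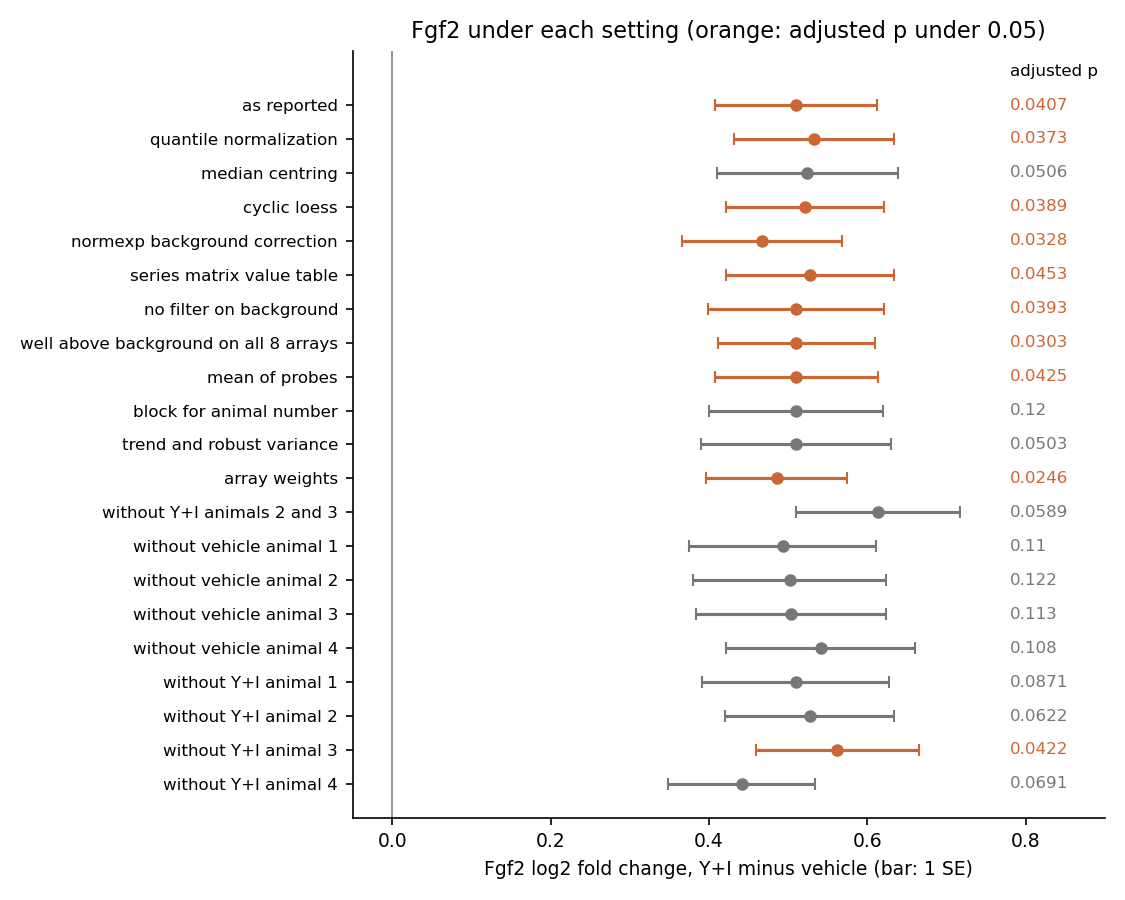
Fgf2 difference between Y+I and vehicle in log2 units (x axis) under the reported setting and 20 others (y axis); bars are 1 SE, and the number at the right is the adjusted p. All differences lie between 0.44 and 0.61, and the adjusted p is under 0.05 for the reported setting and for 9 of the others (orange).

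Among 13277 named features, those whose pattern over the 8 arrays was most like that of Fgf2 were the microtubule-associated kinase gene Mast3 (Pearson r = 0.968), the defensin gene Defb25 (r = 0.968) and Tsnax, the gene of the DNA- and RNA-binding protein translin-associated factor X (r = 0.965). The 8 arrays share a slide and hold 2 groups that differ in Fgf2, so these coefficients are a description. Mast3 rose by 0.39 (adjusted p = 0.0488 in limma), whereas the differences of 0.25 for Defb25 and 0.27 for Tsnax did not pass (adjusted p = 0.227 and 0.139).

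The other secreted ligands did not pass. Fgf1, the acidic fibroblast growth factor, was at -2.49, -2.33, -2.75 and -2.39 in vehicle and at -2.39, -2.70, -2.55 and -1.94 in Y+I. Y+I animal 4 was the highest of the 8 and the others were mixed, giving a difference of 0.09 ± 0.17 (SE; 95% interval -0.30 to 0.49; adjusted p = 0.842). Fgf9, a secreted factor made by neurons, spread widely in both groups: -1.87, -2.26, -2.85 and -2.29 in vehicle, and -2.11, -2.93, -1.66 and -2.94 in Y+I. Its difference of -0.09 ± 0.32 (SE) had a 95% interval from -0.81 to 0.63, too wide to tell a change of the size seen for Fgf2. Fgf18, a ligand of the Fgf8 subfamily, was at -4.22, -4.07, -4.21 and -4.28 in vehicle and at -4.27, -4.78, -4.24 and -4.19 in Y+I. Only Y+I animal 2 was low, and the difference was -0.17 ± 0.14 (SE; 95% interval -0.50 to 0.15; adjusted p = 0.614).

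None of the 3 homologous factors passed either. Fgf12 was held within a narrow range in vehicle, -3.03, -2.88, -2.94 and -2.94, and spread on both sides of it in Y+I, -2.80, -3.43, -3.09 and -2.57. The means, -2.95 ± 0.06 and -2.97 ± 0.37 (SD, n = 4 each), differed by -0.02 ± 0.17 (SE; adjusted p = 0.969). Fgf13, which also binds microtubules, was at 3.07, 3.32, 3.57 and 3.21 in vehicle and at 3.44, 3.63, 3.37 and 3.33 in Y+I on its brightest probe. The groups overlapped and the difference was 0.15 ± 0.13 (SE; 95% interval -0.14 to 0.44; adjusted p = 0.638). A second Fgf13 probe gave -1.19, -0.65, -0.65 and -0.74 against -0.41, -0.98, 0.14 and -0.47. Its larger difference of 0.38 had a 95% interval from -0.14 to 0.90 and did not pass (adjusted p over all probes = 0.494 in limma).

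Fgf14, mutated in a human spinocerebellar ataxia, had 3 probes. The one that represents the gene gave -4.27, -4.44, -4.09 and -4.29 in vehicle and -4.58, -3.91, -4.41 and -4.12 in Y+I, with Y+I animals both above and below the vehicle range. The difference was 0.02 ± 0.16 (SE; adjusted p = 0.973). The Fgf14 probe shown above gave -4.79, -4.68, -4.77 and -4.85 against -4.49, -4.36, -4.68 and -4.60. The groups overlapped only near -4.68, at vehicle animal 2 and Y+I animal 3, and the difference of 0.24 ± 0.10 (SE) had an unadjusted p of 0.0426 and an adjusted p of 0.301 in limma. The third probe was not well above background on any array.

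Of the receptors, Fgfr1 is the one best known from hippocampal neurons and progenitors, and Fgfr2 and Fgfr3 are known from glia. On its brighter probe Fgfr1 stood at -0.46, -0.08, -0.50 and -0.29 in vehicle and at 0.21, -0.43, 0.29 and -0.24 in Y+I. Y+I animals 1 and 3 were above all vehicle animals, while animals 2 and 4 lay within their range. The difference was 0.29 ± 0.18 (SE; 95% interval -0.12 to 0.70; adjusted p = 0.498). The second Fgfr1 probe, which carries the marked stretch, gave -1.07, -0.72, -1.00 and -0.85 against -0.48, -1.02, -0.32 and -0.84, the same animals being high, with a difference of 0.24 ± 0.17 (SE; adjusted p over all probes = 0.543).

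Fgfr2 had the tightest vehicle values of the 10 genes, 2.25, 2.32, 2.27 and 2.29, an SD of 0.03. In Y+I it was at 2.32, 2.18, 2.30 and 1.93, and only animals 2 and 4 were below the vehicle range. The difference was -0.10 ± 0.11 (SE; 95% interval -0.34 to 0.15; adjusted p = 0.726). The other 3 Fgfr2 probes had differences on the other side of 0, from 0.03 to 0.28, and none passed. The largest of them, 0.28 ± 0.20 (SE), belonged to the probe with the marked stretch, which gave -5.00, -4.81, -4.82 and -4.95 in vehicle and -4.64, -5.16, -4.07 and -4.58 in Y+I. With the mean of all Fgfr2 probes in place of the brightest one, the difference of the gene was 0.06, so its sign depends on the probe.

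Fgfr3, a receptor known from astrocytes, had the largest negative difference of the 10 genes and the widest Y+I group. Vehicle animals stood at -0.24, -0.25, -0.52 and -0.10, and Y+I animals at -0.27, -1.72, 0.00 and -1.04. Animals 1 and 3 were as high as vehicle and animals 2 and 4 were low, which gave -0.48 ± 0.34 (SE; 95% interval -1.24 to 0.28; adjusted p = 0.549). On a second Fgfr3 probe Y+I animal 2 was again the lowest of its group, but animal 4 was the highest: it gave -4.66, -4.32, -3.91 and -4.17 in vehicle and -4.35, -4.60, -3.95 and -3.55 in Y+I, a difference of 0.15 ± 0.24 (SE). The 2 animals that were low on the first Fgfr3 probe and for Fgf9, 2 and 4, were those with the lowest 75th percentiles, and the part of signal strength in these values was not tested.

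**Figure D4:**
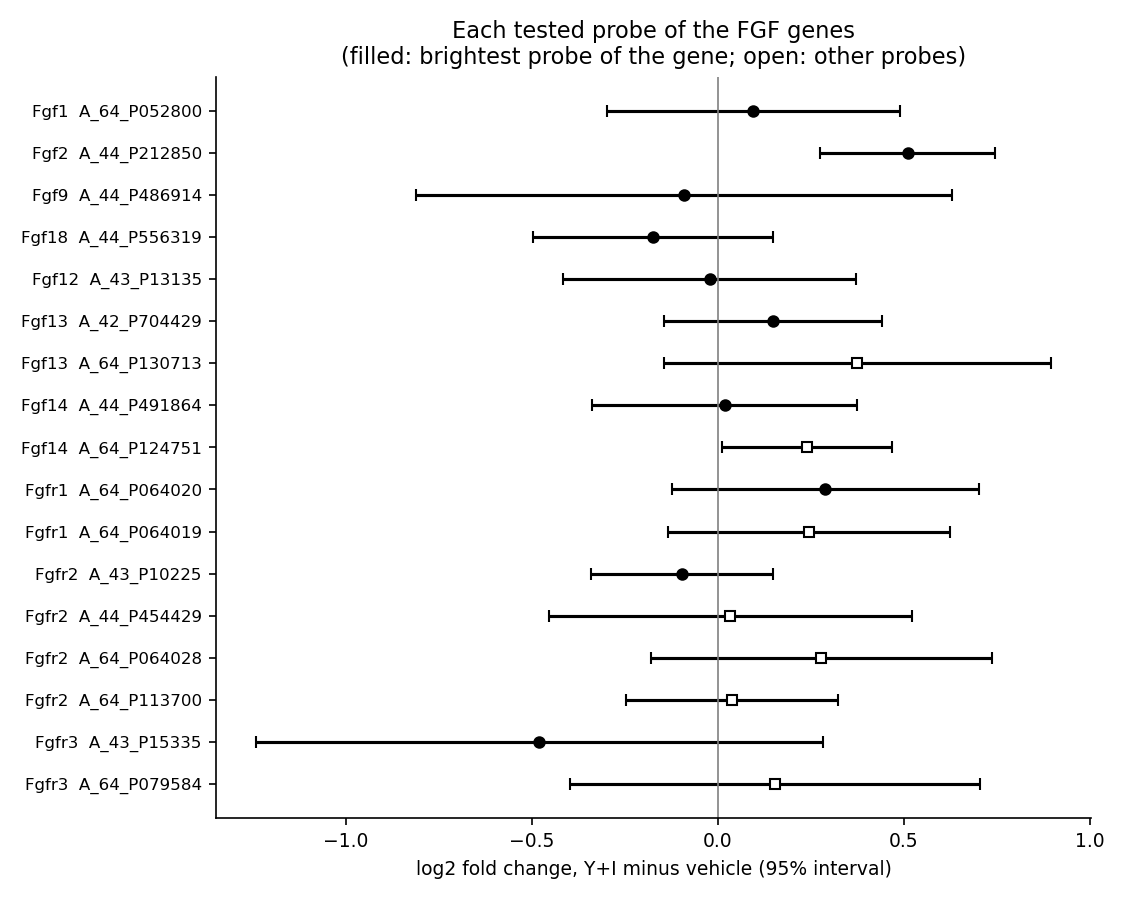
Difference between Y+I and vehicle in log2 units with its 95% interval (x axis) for the 17 probes that passed the filter (y axis: gene and probe); filled circles are the brightest probe of a gene and open squares its other probes. The intervals of 15 probes hold 0, and those of Fgf2 and of the Fgf14 probe at 0.24 do not.

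At the level of probes, 1 of the 17 passed with adjustment, against 2.12% of the 21370 probes tested, and 2 had an unadjusted p under 0.05, against 15.3%. The groups did not overlap for 1 of the 17, against 11.5% of all probes. The difference was above 0 for 12 of the 17 probes, but probes of a gene share their transcripts and are not independent.

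Other genes of the pathway were taken from 6 lists of ligands, receptors and co-receptors, heparan sulfate and carrier proteins, adaptors and transducers, feedback inhibitors and targets, and sodium channel partners of the homologous factors. Of 85 genes with a probe, 67 passed the filter, and 54 passed a filter on all 8 arrays. None of the 67 passed the adjusted threshold in limma, in either direction; without adjustment 7 had a p under 0.05 and were higher in Y+I and 10 were lower, where 15.6% of all features had such a p in either direction. Of the lower genes, Fgf11, Fgfr4 and Etv4 were kept by the filter through the vehicle arrays alone. This favours values below 0, so the count of lower genes is no sign of a fall. The groups did not overlap for 11 genes, Etv4 among them, where the share over all features was 11.7%. The median difference was -0.01, against -0.02 over all features.

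Among the other ligands and homologous factors, 3 passed the filter (Fgf11, Fgf17 and Fgf22), with a median of -0.18. All 3 were kept through the vehicle arrays alone, which favours values below 0, so this median is no sign of a fall. The homologous factor Fgf11 had means of -6.24 ± 0.28 in vehicle and -7.12 ± 0.47 in Y+I (SD, n = 4 each), where it was well above background on 1 array only. Its difference of -0.87 (adjusted p = 0.111) became 0.14 with normexp background correction, so it has no settled direction. Without Y+I animal 4 it was -1.11 (adjusted p = 0.0226 in limma). Fgf22, a ligand known from synapse formation in the hippocampus, differed by -0.18 (adjusted p = 0.707) and by 0.25 with normexp. Of the 5 other receptors and co-receptors, with a median of -0.36, no Y+I array read Fgfr4 well above background. Its means were -6.74 in vehicle and -7.31 in Y+I (adjusted p = 0.202), and with normexp its difference was 0.23. Flrt1, a membrane protein that binds FGF receptors, went from -3.54 ± 0.13 to -4.04 ± 0.32 (SD, n = 4 each; adjusted p = 0.168).

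Of the 15 heparan sulfate and carrier genes, with a median of 0.07, the syndecan Sdc3 came closest to the threshold. This cell surface proteoglycan was at 1.20, 0.99, 1.26 and 1.11 in vehicle and at 0.74, 0.75, 0.70 and 0.69 in Y+I. All Y+I animals were below all vehicle animals, and the difference was -0.42 ± 0.09 (SE; adjusted p = 0.0548 in limma). Sdc3 passed in 5 of 20 other settings. With quantile normalisation its adjusted p in limma was 0.0440, and with median centring it was 0.132. With the mean of its probes the difference was -0.39 (adjusted p = 0.141 in limma). The glypican Gpc1, a lipid-anchored proteoglycan, was at 3.48, 4.07, 3.54 and 3.66 against 4.08, 4.23, 4.20 and 4.19, with a difference of 0.49 ± 0.14 (SE; adjusted p = 0.116). Vehicle animal 2 was close to the Y+I group here, and without it the difference of Gpc1 was 0.62 with an adjusted p of 0.0444 in limma.

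The 24 adaptors and transducers had a median of 0.03. Ptpn11 was at -2.77, -2.80, -2.60 and -2.48 in vehicle and at -2.35, -1.91, -2.18 and -1.63 in Y+I, with no overlap and a difference of 0.65 ± 0.16 (SE; adjusted p = 0.0907 in limma). Ptpn11 passed in 2 of 20 other settings, with a lowest adjusted p of 0.0386 in limma. The kinase Braf differed by 0.33 ± 0.11 (SE; adjusted p = 0.161). The 12 feedback inhibitors and targets had a median of -0.17. Of these, Spry3, Spred2, Spred3, Il17rd and Etv4 were kept by the filter through the vehicle arrays alone, which favours values below 0. Dusp6, the phosphatase of ERK, was at 1.35, 1.70, 1.81 and 1.76 in vehicle and at 2.10, 2.41, 2.14 and 2.18 in Y+I. The groups did not overlap, and the difference of 0.55 ± 0.13 (SE) had an adjusted p of 0.0678. Dusp6 passed in 2 of 20 other settings, with a lowest adjusted p of 0.0306 in limma. The ETS transcription factor Etv4 had the other sign, -0.72 ± 0.20 (SE; adjusted p = 0.123); it was well above background on 2 Y+I arrays, and its difference was 0.18 with normexp and -0.89 without Y+I animal 1 (adjusted p = 0.0476 in limma). Etv1, chosen after its values were seen because it lies lowest in the plot of the pathway lists, was at -1.62, -1.37, -1.67 and -1.54 in vehicle and at -1.91, -3.95, -1.77 and -2.96 in Y+I, where animals 2 and 4 were again low (adjusted p = 0.256). The 8 partners of the homologous factors had a median of 0.08, and the sodium channel gene Scn8a differed by 0.28 (adjusted p = 0.479 in limma).

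**Figure D5:**
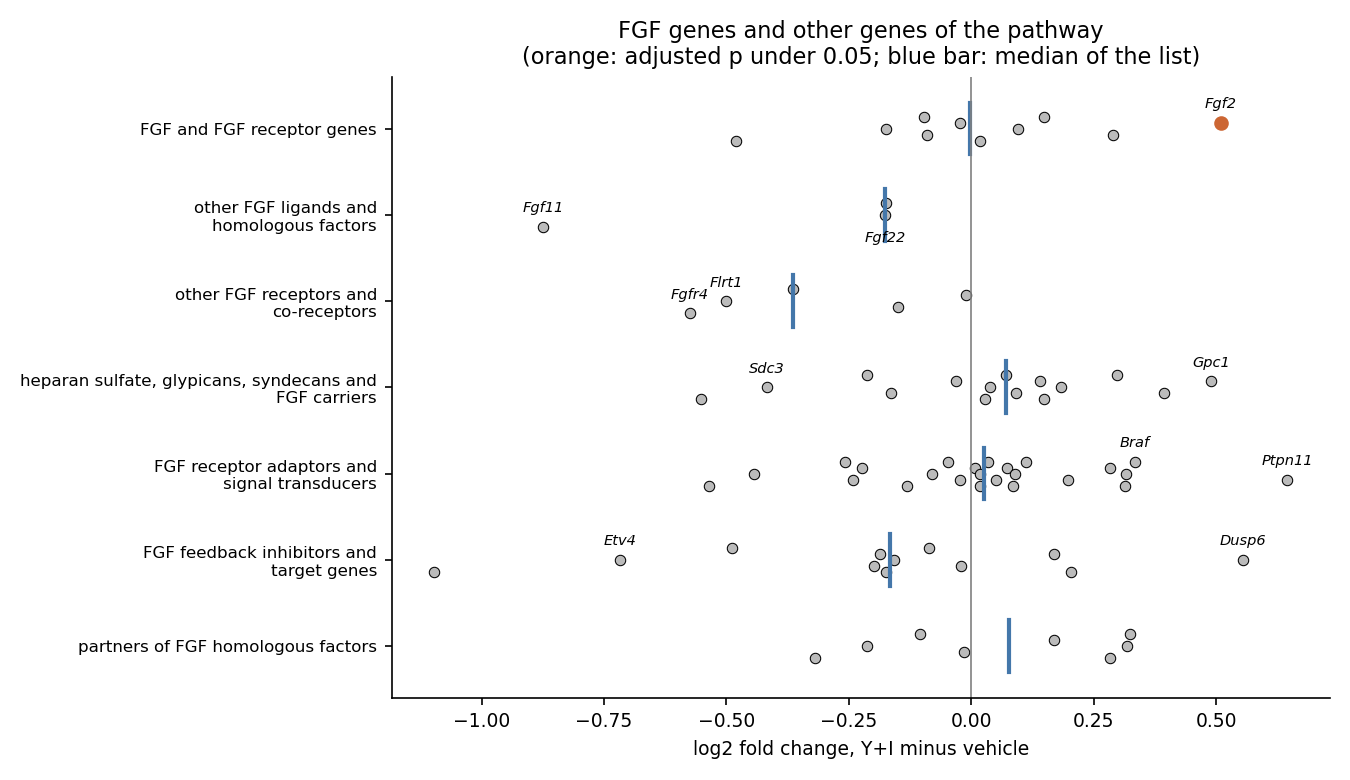
Difference between Y+I and vehicle in log2 units (x axis) for the 10 FGF and FGF receptor genes and for the tested genes of the 6 other lists (y axis); each dot is a gene, blue bars are list medians, and orange marks an adjusted p under 0.05. Fgf2 is the only gene in orange, and the list medians lie between -0.36 and 0.08. Some lists hold genes that the filter kept through the vehicle arrays alone, which favours a median below 0.

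Marker genes of the cells that a hippocampal sample can hold were read on the same arrays; the counts of markers changed below stand against the 2.33% of all features that passed. All 12 markers of hippocampal neurons passed the filter; 1 rose (Camk2a, by 0.78, adjusted p = 0.0366 in limma), 0 fell and their median difference was 0.48. Their summed signal relative to the 75th percentile was 32.1 to 49.5 in vehicle and 56.9 to 62.1 in Y+I, without overlap, but the sum depends on its brightest probe, that of Fibcd1, whose own groups overlapped (adjusted p = 0.260 in limma). Left without Fibcd1, which was done after the values were seen, the sums were 17.6 to 21.6 and 21.2 to 31.7 and overlapped. Among the single markers the groups did not overlap for 4 of the 12, against 11.7% of all features. In other lists this held for 4 of 10 endothelial, 4 of 10 meningeal and 5 of 11 thalamus, habenula and striatum markers. It held for 1 of 12 oligodendrocyte markers and for 0 of the astrocyte, precursor, microglial and choroid plexus markers. The 12 astrocyte markers had a median of 0.01, 0 changed, and their sums overlapped (211 to 222 against 172 to 228). Of 12 oligodendrocyte markers 1 rose (Aspa; sums 171 to 188 against 171 to 217), and of 6 precursor and 8 microglial markers 0 changed. Meningeal fibroblasts, another source of FGFs, had 3 of 10 markers lower (Col1a1, Slc6a13 and Igfbp2) and 0 higher, a median of -0.45 and sums of 14.2 to 19.5 against 12.5 to 16.6. Of 10 endothelial markers 1 rose (Slc2a1) and 1 fell (Kdr). Markers of thalamus, habenula and striatum, which lie near the hippocampus, had 2 of 11 lower (Slc17a6 and Drd2) and 0 higher, a median of -0.49, and sums of 3.59 to 5.29 against 2.68 to 3.24, without overlap; without their brightest probe, that of Ppp1r1b, the sums were 2.44 to 3.31 against 1.66 to 2.03. Of the 8 choroid plexus markers 5 passed the filter and 0 of them changed. Their sums were 0.317 to 4.63 against 0.404 to 1.55. Without their brightest probe, that of Ttr, the sums were 0.173 to 0.222 against 0.205 to 0.306. The part of the neuronal and neighbouring-region markers in the Fgf2 difference was not tested.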

How the data were processed

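Cy3-labelled hippocampal RNA of 8 animals was read on 1-colour Agilent rat arrays, per the labels' protocols; the titles of the samples gave group and animal number. The intensity of each spot is, per the file headers, a processed signal of Feature Extraction 10.5.1.1, corrected for background but not scaled across arrays. A value table with log2 values was also deposited, and neither labels nor headers state its scale; against the scanner values its columns had r of at least 0.999 and a slope of 0.994 to 0.999, with medians between -3.51 and -3.35 and 75th percentiles near 0.01, so it was read as a log2 signal centred on a 75th percentile. Its exact centring stays unknown, and it served as an alternative.

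From each processed signal, as log2, the array's own 75th percentile of noncontrol spots was subtracted. Non-uniform and outlier spots were set to missing, spots of a probe were averaged, and probes were kept when well above background on at least 50% of their spots on all 4 arrays of a group, with at least 3 values per group. Symbols were updated through RefSeq (GRCr8), and a gene was represented by its brightest kept probe. The comparison used limma 3.58.1 (lmFit, eBayes; R 4.3.3) with two-sided p-values, adjusted by Benjamini-Hochberg over 18803 features (21370 probes for probe values) and a threshold of 0.05; fits used all 8 arrays. The named genes were the 10 genes and all their probes, the genes of each other list with an adjusted p under 0.05 or the 2 smallest p-values, and the 3 named features most correlated with a changed gene. A result for 1 gene that falls under this rule is left out here. The genes and lists were chosen with earlier results of these data known. The 20 alternatives covered normalisation, background correction, filters, probe summaries, variance models and arrays left out. The procedure was run on simulated data in which both groups had the same SD and arrays did not differ in strength, unlike here. Plots were made in matplotlib 3.10.9 (Python 3.11.15).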

Additional observations from a re-analysis of the deposited data

Results flagged for a closer look

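Among 58 sets of 4 animals checked with Dixon's test, 5 had 1 animal apart from the other 3, where chance gives about 1 in 20. Fgf18 in Y+I animal 2 was at -4.78, below the other Y+I animals. Fgf11 in vehicle animal 1 was at -6.67, below the other vehicle animals, and in Y+I animal 4 at -6.41, above the other Y+I animals. Fgf22 in vehicle animal 4 was at -5.77 and in Y+I animal 2 at -6.19, in both cases below the rest of the group.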

How the results depend on the processing

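Fgf2 kept its direction under all 20 alternatives. Fgf2 was the only one of the 10 genes to pass. The count of changed genes was therefore 0 with median centring, the replicate block, a trended and robust variance, and without Y+I animals 2 and 3. It was 0 to 1 with an array left out. The count of changed probes was the same in each, and 2 with no filter on background. Dropping the filter adds only the Fgf14 probe that was not well above background on any array. Of the other pathway genes 1 passed with quantile normalisation, cyclic loess, normexp, a filter on all 8 arrays or array weights, 2 with a trended and robust variance, 7 with no filter, and 0 to 1 with an array left out. The 439 changed features (31.7% higher) became 3887 (86.5% higher) with no filter, 144 with the replicate block, 170 without Y+I animals 2 and 3, and 120 to 348 with an array left out; the share that was higher was 66.4% with normexp, 43.3% with a filter on all 8 arrays and 18.6% without Y+I animal 4. Blocking on the animal number, which is also the slide column, left the Fgf2 difference at 0.51 with an adjusted p of 0.120. Same-numbered arrays had correlations of 0.05, -0.11, -0.04 and 0.04 in their deviations from the group means. Only vehicle array 1 and Y+I array 4 correlated best with the array of their own number. No clear pairing by number was seen, but these are 4 pooled values, and an effect of the column on single genes was not tested.

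The following differences, none past the threshold, changed sign. With normexp they were 0.018 for Fgf9, 0.090 for Fgf18, 0.10 for Fgf12, 0.14 for Fgf11, 0.25 for Fgf22, 0.23 for Fgfr4 and 0.18 for Etv4. With array weights they were 0.096 for Fgf9, 0.058 for Fgf12, -0.12 for Fgf14 and 0.0088 for Fgf22. Without Y+I animals 2 and 3 they were 0.27 for Fgf12, -0.076 for Fgf14 and 0.027 for Fgf22. Fgf12 was 0.00057 with quantile normalisation, Fgf22 0.041 in the value table and Fgfr2 0.064 with the mean of probes. With an array left out, the differences ranged from -0.056 to 0.20 for Fgf1, -0.34 to 0.083 for Fgf9, -0.16 to 0.13 for Fgf12, -0.097 to 0.13 for Fgf14 and -0.27 to 0.0032 for Fgf22. The cause of these changes was not tested. Dim probes, such as those of Fgf11, Fgf22, Fgfr4 and Etv4, are limited by their signal over background.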
